A study of Mus musculus with 30 samples.

Results

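RNA of the ventral prostate (VP) was compared between 5 male C57BL/6 mice fed a linseed oil diet (LO) and 5 fed a soybean oil diet (SO) for 12 weeks, which are 10 of the 30 mice of the series. The mice were taken by the diet and time in their sample labels, and all 10 entered the comparison. Every mouse received its diet from weaning, and the diets were isocaloric growth diets of normal fat content that differed in the source of fat. The study's methods describe glucose, insulin and acute cold tests near the end of feeding, without saying which mice of a group took them. Of the 39179 genes in the count tables, 15873 passed the filter on low counts and were tested. The comparison asked how an oil rich in n-3 fatty acids and one rich in n-6 fatty acids differ in their relation to gene expression in the gland.

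Linseed oil is rich in alpha-linolenic acid, the plant n-3 fatty acid, and soybean oil in linoleic acid, its n-6 counterpart. Both are lengthened and desaturated by the same enzymes, FADS2, ELOVL5 and FADS1, to eicosapentaenoic acid on the n-3 side and to arachidonic acid on the n-6 side. Cyclooxygenases and lipoxygenases turn these products into eicosanoids that raise or resolve inflammation, and polyunsaturated fatty acids (PUFA) are ligands of PPAR receptors and repress the lipogenic factor SREBP1. The VP is a lobe of the rodent prostate whose luminal epithelium secretes a small set of proteins at very high level under androgen control.

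The defining genes of the VP were present in every library. Sbp, which encodes the spermine-binding protein of the VP, took 152998 to 252899 CPM (counts scaled to library size by the TMM method) in the LO mice and 167229 to 248441 CPM in the SO mice, and the secreted trypsin inhibitor Spink1 took 37349.9 to 62269.8 CPM over the 10 mice. Total counts on genes were 29596273 to 39239920 in LO and 31912159 to 38549367 in SO, and the 10 genes with the most counts took 26.4% to 35.2% and 28.5% to 34.7% of them (exact permutation test, two-sided, p = 0.262). Msmb and Pbsn, secreted proteins of the prostate lobes, were low in LO mouse 2 (521 and 119 CPM) and SO mouse 5 (611 and 327 CPM) against 2189 to 3806 and 1974 to 4266 CPM in the other 8 mice. Tgm4, the transglutaminase of the anterior prostate, was at 1250.01 CPM in LO mouse 4 and at 3.87 to 83.4 CPM in the others, and Gsdma at 23 CPM in that mouse and 0.219 to 1.36 CPM elsewhere.

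**Figure D1:**
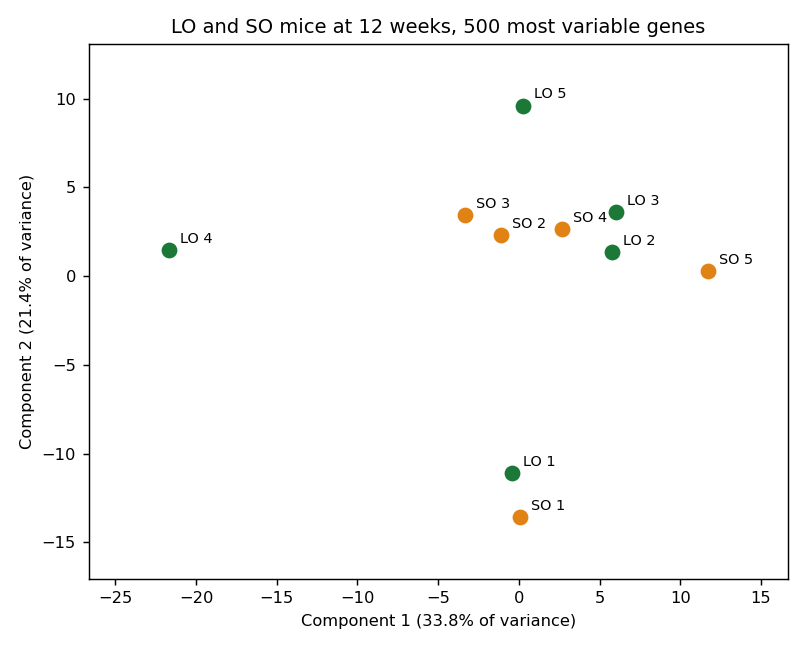
First and second principal components (arbitrary units) of the 500 most variable genes in the 5 LO mice (green) and 5 SO mice (orange) at 12 weeks, labelled by diet and mouse number. LO mouse 4 lies at -21.6 on component 1, LO mouse 1 and SO mouse 1 at -11.1 and -13.6 on component 2, and the diets overlap on both axes.

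In the analysis of principal components the mice did not separate by diet. Component 1 held 33.8% of the variance and component 2 held 21.4%, and the LO mean differed from the SO mean by -4.00 and 1.96 units (exact permutation tests, two-sided, p = 0.627 and p = 0.603). The mean distance between mice of a diet, over the same 500 genes, was 24.1 in LO and 18.3 in SO, a difference that did not pass the test over all arrangements of the mice (exact permutation test, two-sided, p = 0.183). LO mouse 4 and the mice numbered 1 of both diets stood apart, and values without them or without LO mouse 5 are given beside the results that these mice moved most. The fit without LO mice 4 and 5 was added after seeing the data. Where these mice are the highest of a list, leaving them out lowers its median by construction, so such values only describe how far the list rests on them.

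No gene passed the adjusted threshold of the main test. With edgeR's quasi-likelihood test and Benjamini-Hochberg adjustment, 0 of 15873 genes had an adjusted p under 0.05, and the smallest adjusted p was 0.999. At an unadjusted p under 0.05 there were 679 genes (4.28% of those tested), of which 400 (2.52%) were higher and 279 (1.76%) lower in LO. By DESeq2's Wald test on the same model the count was also 0, and 807 genes had an unadjusted p under 0.05. DESeq2 tested 25367 genes, so 807 is not a share of the 15873 genes of edgeR. On the LO and SO mice alone DESeq2 called 1 gene, Rpl10-ps3. With the mouse number as a block it called 12 of the 12982 genes given an adjusted p, among them Bhlhe40, Ddit3, Il1b, Dusp1, Baz1b and mt-Nd3. In both of these designs edgeR called 0. The median SE of a log2 fold change was 0.138. In 107 genes (0.674%) the diets did not overlap, 52 (0.328%) with every LO mouse above every SO mouse and 55 (0.347%) with every LO mouse below. With diet labels placed at random on 5 and 5 mice, a gene shows no overlap at a rate of 0.00794. An unadjusted p under 0.05 is then met at a rate of about 0.05. The shares seen, 0.674% and 4.28%, were below these rates. The values that follow therefore describe differences short of the adjusted threshold, every gene named had an adjusted p of 0.999 or above by edgeR's quasi-likelihood test with Benjamini-Hochberg adjustment, and members are counted at an unadjusted p under 0.05 of the same test. The p-values set each difference against the spread between the mice sampled and treat the mice as independent. The labels do not tie the mice to litters or cages, so this could not be checked.

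Mfsd2a (chromosome 4, 122946850-122961188, GRCm38), the transporter that carries docosahexaenoic acid into cells as lysophosphatidylcholine, had the smallest p among the genes without overlap and with a mean of at least 1 CPM. It lay at 4.23, 3.29, 3.25, 3.75 and 2.69 CPM in LO mice 1 to 5 and at 1.32, 2.49, 1.96, 2.33 and 1.4 CPM in SO mice 1 to 5. All 5 LO mice were above all 5 SO mice, which the choice among genes without overlap required. Genes named by this rule, here and below, were picked for a small p, so their intervals are not further evidence of a difference. The log2 fold change was 0.86 (SE 0.199, 95% interval 0.43 to 1.28), and without LO mice 4 and 5 it was 0.92. In the LO and SO mice fed for 32 weeks, which are other animals, Mfsd2a differed by 0.56 (SE 0.354) and the diets overlapped.

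Of 24 genes of fatty acid uptake, activation and esterification, 17 were higher in LO, where 50.6% of all genes tested were. Mfsd2a was the only member at an unadjusted p under 0.05, where 2.52% of all genes were higher. Lpl (lipoprotein lipase), Cd36 (a fatty acid translocase) and Fabp4 (a fatty acid carrier of adipocytes) spread widely within each diet. Lpl ranged over 16.7 to 177 CPM in LO and 23.7 to 159 CPM in SO, Cd36 over 17.6 to 99.98 and 25.6 to 84 CPM, and Fabp4 over 15.6 to 255 and 29.6 to 238 CPM. All 3 were lowest in LO mouse 4 and highest in LO mouse 5. The summed level of the 15 adipocyte genes tested moved with them, from 58.5 to 958 CPM in LO and 130.3 to 1208 CPM in SO, with 58.5 CPM in LO mouse 4, 958 CPM in LO mouse 5 and 1208 CPM in SO mouse 5. The adipocyte hormone Adipoq was detected in every mouse (1.31 to 66.8 CPM). The part of fat tissue in these values was not tested, and in bulk tissue fewer cells of a type and less RNA per cell cannot be told apart.

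The enzymes tested that make long PUFA differed in no common direction, and the largest difference was that of Fads2. Elovl2, a further elongase, did not pass the filter, with at most 6 counts in a library. Fads2, the delta-6 desaturase and rate-limiting step, was at 13.5, 8.25, 9.79, 12.2 and 12.3 CPM in LO and at 7.18, 8.48, 5.68, 11.8 and 10.3 CPM in SO. The diets overlapped, with LO mouse 2 below 3 of the SO mice, and the log2 fold change was 0.37 (SE 0.183, 95% interval -0.02 to 0.76). Fads1, the delta-5 desaturase, differed by 0.14 (SE 0.109, 95% interval -0.09 to 0.37) and the elongase Elovl5 by 0.01 (SE 0.103, 95% interval -0.21 to 0.23). Of the 15 genes of PUFA desaturation and elongation tested, 7 were higher and 8 lower in LO, none at an unadjusted p under 0.05, with a median log2 fold change of -0.0048 against 0.0019 over all genes tested. After 32 weeks 12 of 15 were higher in LO (49.3% of all genes were), 1 of them at an unadjusted p under 0.05 (1.5% of all genes), which was Fads1 with 0.39 (SE 0.129). Fads2 differed by 0.30 (SE 0.173) at that time.

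With all mice, no target gene of the lipid-sensing factors was at an unadjusted p under 0.05. Of 21 lipogenesis genes and SREBP1 targets, 18 were higher in LO with a median of 0.09, but without LO mouse 3 there were 6 higher (50.4% of all genes) with a median of -0.03. Fasn, the fatty acid synthase, lay at 102 to 194 CPM in LO and 91.2 to 209.8 CPM in SO, and the desaturase Scd1 at 419 to 1350.4 and 483 to 968 CPM. Of 23 genes of cholesterol synthesis, 8 were higher, with a median of -0.05, and LO mouse 2 was the highest mouse for 17 of them. Without LO mouse 2, 2 were higher, 5 were lower at an unadjusted p under 0.05 (2.91% of all genes) and the median was -0.19, whereas the median was above 0 without LO mouse 1 (0.01), LO mouse 5 (0.04) or SO mouse 1 (0.02). Of 34 PPAR targets and genes of fatty acid oxidation, 17 were higher, with a median of -0.0065. Angptl4, a lipoprotein lipase inhibitor induced by PPARs, was at 3.53, 2.31, 5.34, 1.66 and 6.84 CPM in LO and at 6.71, 7.53, 9.27, 2.92 and 7.65 CPM in SO. LO mouse 5 and SO mouse 4 were the mice that crossed over, and the log2 fold change was -0.79 (SE 0.382, 95% interval -1.61 to 0.02).

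Among 24 enzymes of eicosanoid synthesis, 18 were higher in LO, with 1 higher (2.52% of all genes) and 1 lower (1.76%) at an unadjusted p under 0.05. Tbxas1, the thromboxane synthase, was at 3.32, 1.49, 1.92, 2.62 and 3.82 CPM in LO and at 1.54, 1.78, 1.96, 1.83 and 1.73 CPM in SO, and 3 LO mice were above every SO mouse (log2 fold change 0.58, SE 0.251, 95% interval 0.04 to 1.11). Ephx1, an epoxide hydrolase, was lower in LO (log2 fold change -0.13, SE 0.0623). The inducible cyclooxygenase Ptgs2 lay at 2.36 to 5.3 CPM in LO and 1.29 to 2.92 CPM in SO (log2 fold change 0.68, SE 0.364, 95% interval -0.09 to 1.46). Of 14 receptors of eicosanoids and fatty acids, 12 were higher in LO and none was at an unadjusted p under 0.05. Of 41 antioxidant genes and NRF2 targets, 30 were lower in LO, with a median of -0.07. The peroxiredoxin Prdx4 (log2 fold change -0.24, SE 0.101, 95% interval -0.46 to -0.03) was the member at an unadjusted p under 0.05 (1.76% of all genes were lower). Without LO mouse 2, 4 members were lower at that threshold (2.91% of all genes).

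**Figure D2:**
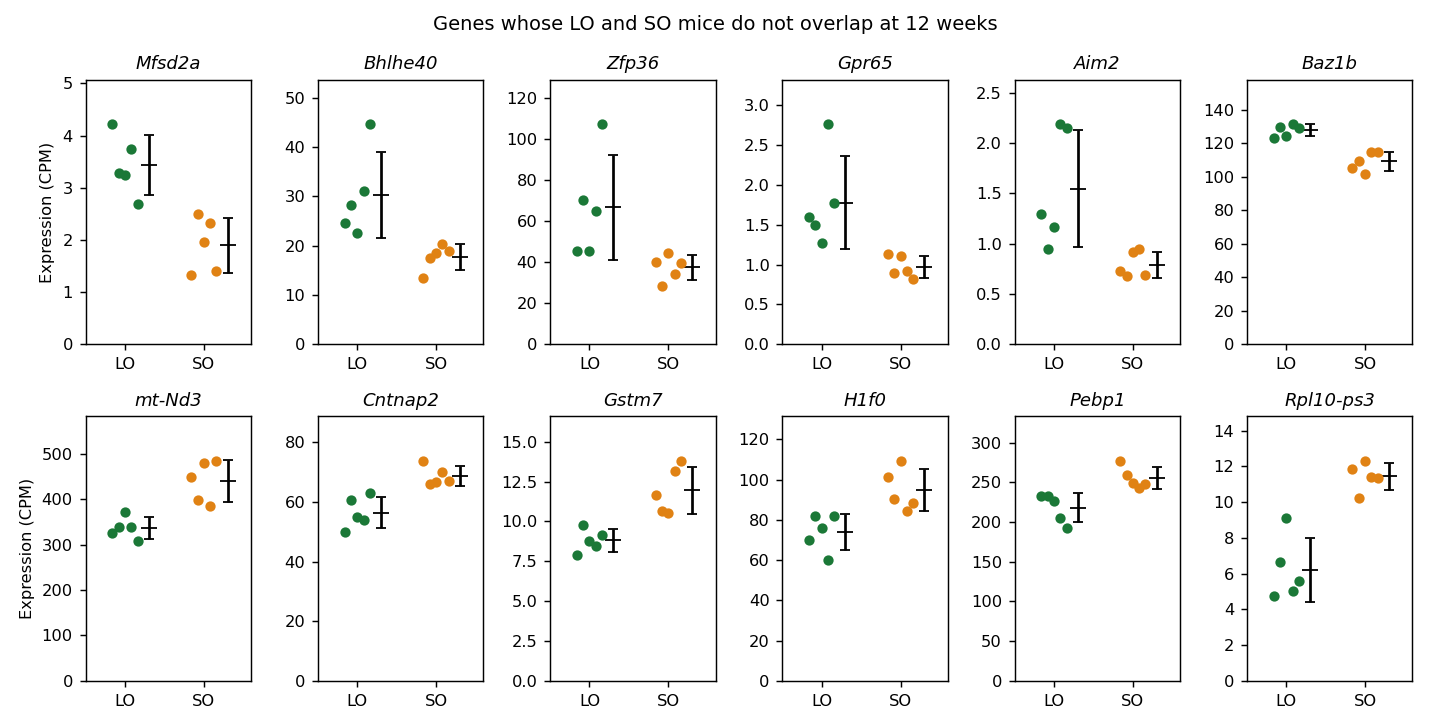
Expression in CPM (linear axes from 0) of 12 genes in the 5 LO mice (green points) and the 5 SO mice (orange points) at 12 weeks, with the mean and SD of each diet in black. The diets do not overlap in any of the 12, of which 6 are higher in LO (Mfsd2a at 2.69 to 4.23 against 1.32 to 2.49 CPM) and 6 lower (mt-Nd3 at 307 to 371 against 385 to 485 CPM).

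Beside Mfsd2a, the genes higher in LO with no overlap and the smallest p were of several kinds. Bhlhe40, a transcriptional repressor of the clock that activated lymphocytes also express, was at 24.7, 28.2, 22.7, 31.1 and 44.8 CPM in LO and at 13.4, 17.6, 18.6, 20.3 and 19 CPM in SO (log2 fold change 0.77, SE 0.191, 95% interval 0.36 to 1.18). Zfp36, an RNA-binding protein that destabilises cytokine mRNAs, was at 45.5, 70.5, 45.3, 65.2 and 108 CPM in LO and at 40.3, 28.5, 44.6, 34.5 and 39.5 CPM in SO (log2 fold change 0.83, SE 0.223). LO mouse 5 was the highest in both genes, and for Zfp36 the lowest LO mouse exceeded the highest SO mouse by under 1 CPM. Gpr65 (a proton-sensing receptor of leukocytes, log2 fold change 0.87, SE 0.23) and Aim2 (a sensor of cytosolic DNA, 0.97, SE 0.289) were under 5 CPM in every mouse. Baz1b (0.23, SE 0.0558), Dnajb6 (0.19, SE 0.0543), Ndel1 (0.20, SE 0.0586) and the RNA demethylase Alkbh5 (0.18, SE 0.0546) differed by less, with a narrower spread. After 32 weeks Bhlhe40 (0.17, SE 0.178), Zfp36 (0.31, SE 0.192), Dnajb6 (0.05) and Ndel1 (0.05) were again higher in LO, whereas Gpr65 (-0.05), Aim2 (-0.22), Baz1b (-0.03) and Alkbh5 (-0.04) lay on the other side of 0, with an edgeR p above 0.05 for each of the 8.

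The 10 genes lower in LO by the same rule were of other kinds. Cntnap2, a cell adhesion gene best known in neurons (chromosome 6, 45059357-47304213), lay at 49.8 to 62.9 CPM in LO and 66 to 73.9 CPM in SO (log2 fold change -0.28, SE 0.0673, 95% interval -0.43 to -0.14). Gstm7, a glutathione transferase, lay at 7.9 to 9.78 and 10.5 to 13.8 CPM (log2 fold change -0.44, SE 0.116), and the linker histone H1f0 at 60.2 to 81.8 and 84.3 to 109 CPM (-0.36, SE 0.0953). Pebp1, an inhibitor of RAF kinase (-0.23, SE 0.0658), Mkrn3 (-0.53, SE 0.143), Gm20632 (-0.43, SE 0.121), BC004004 (-0.18, SE 0.0587) and Rai2 (-0.23, SE 0.077) belonged to the group with mt-Nd3. Rpl10-ps3, annotated as a pseudogene of a ribosomal protein gene, was at 4.75, 6.64, 9.14, 5.01 and 5.59 CPM in LO and at 11.8, 10.3, 12.3, 11.4 and 11.4 CPM in SO (-0.88, SE 0.278), and its count is uncertain since reads shared with near-identical copies could be split or set aside. After 32 weeks Cntnap2 (-0.16, SE 0.196) and Gm20632 (-0.34, SE 0.171) were again lower in LO, whereas Gstm7 (0.06), Mkrn3 (0.09), Pebp1 (0.04) and Rpl10-ps3 (0.12) lay on the other side of 0, with an edgeR p above 0.05 for each of the 6.

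mt-Nd3 (mitochondrial genome, 9459-9806), a subunit of complex I, was at 326, 339, 371, 338 and 307 CPM in LO and at 449, 397, 479, 385 and 485 CPM in SO. Every LO mouse was below every SO mouse (log2 fold change -0.39, SE 0.103, 95% interval -0.60 to -0.17). Of the 12 mitochondrially encoded genes tested, 11 were lower in LO with a median of -0.15, and 2 were at an unadjusted p under 0.05 (1.76% of all genes), the other being the complex I subunit mt-Nd2 (-0.23, SE 0.0937). mt-Co1, a subunit of complex IV, differed by -0.03 (SE 0.0832). Without LO mice 4 and 5, 11 of 12 were lower with a median of -0.12, and after 32 weeks all 12 were lower with a median of -0.17, none at an unadjusted p under 0.05.

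The immediate early genes, which cells switch on within minutes of a stimulus, were mostly higher in LO. Of 22 tested, 20 were higher and 12 were so at an unadjusted p under 0.05, where 2.52% of all genes were, and the median log2 fold change was 0.63. Jun, a subunit of AP-1, was at 31.9, 61.6, 47.1, 68.6 and 163 CPM in LO and at 24.6, 13.8, 37.8, 23.2 and 25.1 CPM in SO (log2 fold change 1.58, SE 0.416, 95% interval 0.70 to 2.47). Atf3, a stress-induced repressor, was at 8.36, 47, 39, 84 and 287 CPM in LO and at 9.61, 7.65, 38.5, 9.61 and 21.2 CPM in SO (log2 fold change 2.43, SE 0.786, and 1.37 without LO mouse 5). Dusp1, a phosphatase that ends MAP kinase signalling, was at 11, 43.5, 20.4, 49.3 and 96 CPM in LO and at 7.31, 8.36, 17.6, 15.2 and 14.6 CPM in SO (1.8, SE 0.50). For each of the 3 genes LO mouse 1 lay within the SO range and LO mouse 5 was the highest of the 10 mice.

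LO mouse 5 was the highest mouse for 16 of the 22 immediate early genes, and for 12.3% of all genes. Fos, the partner of Jun, was at 6.33, 16.4, 2.09, 7.17 and 18 CPM in LO and at 1.2, 5.4, 6.21, 2.33 and 1.65 CPM in SO (log2 fold change 1.58, SE 0.603), with LO mice 2 and 5 well above the rest and LO mouse 3 within the SO range. Without LO mouse 5, 20 of 23 members were higher in LO and 4 were so at an unadjusted p under 0.05 (1.92% of all genes), with a median of 0.52. Without LO mice 4 and 5 the count was 2 (1.22% of all genes) and the median 0.52, with Jun at 0.91, Zfp36 at 0.52 and Atf3 at 0.86. Junb, a further AP-1 subunit, was at 35.5 and 35.1 CPM in the mice numbered 1 of LO and SO and at 3.97 to 10.2 CPM in the other 8. Without the mice numbered 1, 21 of 22 immediate early genes were higher in LO, 8 of them at an unadjusted p under 0.05 (2.14% of all genes), where 49.5% of all genes were higher.

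Signalling pathways reach the promoters of these genes through short motifs. A cAMP response element, TGACGTCA, was found in the 250 bases before the start site of 3 of the 19 immediate early genes with a promoter in the RefSeq table, and of 1.77% of 27025 genes. A CArG box, the site of serum response factor, was found in 2 of 19 and 1.62%. Both strands were searched, and the 2 motifs read the same on either strand. The promoters of Dusp1 (chr17:26508473-26508722, minus strand, GRCm38.p6) and Zfp36 (chr7:28379229-28379478, minus strand) are shown as examples from genes that were higher in LO, with the cAMP response element of the former and the CArG box of the latter in capitals.
Dusp1: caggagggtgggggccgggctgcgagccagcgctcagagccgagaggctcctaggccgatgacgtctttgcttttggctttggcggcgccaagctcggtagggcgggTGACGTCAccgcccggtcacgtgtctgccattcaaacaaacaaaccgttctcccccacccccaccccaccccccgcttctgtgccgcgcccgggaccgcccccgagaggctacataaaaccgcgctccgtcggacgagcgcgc
Zfp36: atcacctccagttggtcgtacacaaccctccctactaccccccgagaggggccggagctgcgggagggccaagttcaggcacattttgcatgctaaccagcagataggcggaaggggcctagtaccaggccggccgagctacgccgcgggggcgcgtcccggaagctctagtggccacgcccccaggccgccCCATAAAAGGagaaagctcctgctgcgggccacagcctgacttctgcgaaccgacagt
A match describes the letters in this window and is not a measure of binding.

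**Figure D3:**
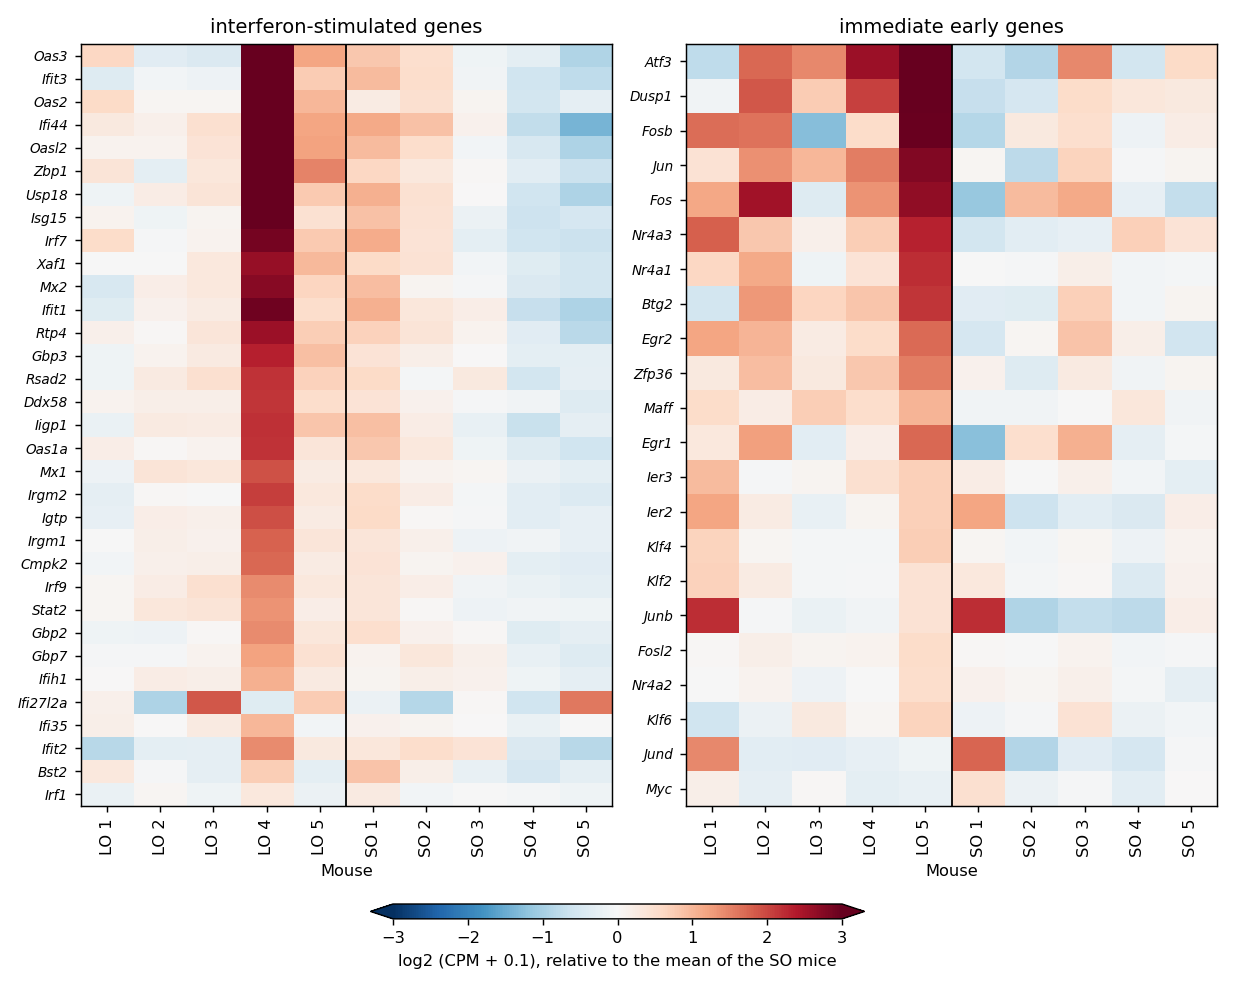
Colour shows log2 (CPM + 0.1) of each gene (rows) in each mouse (columns) relative to the mean of the 5 SO mice, for 33 of the 34 interferon-stimulated genes tested and for 22 immediate early genes, with colours limited at 3 and -3. LO mouse 4 is the highest mouse for 32 of the 34 interferon-stimulated genes, and LO mouse 5 for 16 of the immediate early genes.

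Stress genes showed members on both sides. Ddit3 (CHOP), a transcription factor of prolonged endoplasmic reticulum stress, was at 11.9, 13.2, 18.9, 32.2 and 89.6 CPM in LO and at 11.2, 8.06, 7.57, 9.38 and 15.8 CPM in SO (log2 fold change 1.67, SE 0.525, 95% interval 0.55 to 2.79). LO mouse 5 was the highest, without it the difference was 0.87, and without LO mice 4 and 5 it was 0.49. Dnajb9, a co-chaperone of the endoplasmic reticulum, was at 90.4, 80.7, 96.8, 87.8 and 103 CPM in LO and at 64.1, 55.8, 50.8, 75 and 86.7 CPM in SO (log2 fold change 0.46, SE 0.133, 95% interval 0.18 to 0.75), and LO mouse 2 was the only LO mouse below the highest SO mouse. Of 29 genes of the unfolded protein response, 16 were higher in LO and 5 were so at an unadjusted p under 0.05, where 50.6% and 2.52% of all genes were, with a median of 0.04. That count was 2 without SO mouse 2 (2.04% of all genes) and 2 without SO mouse 3 (1.95%), and the median was -0.03 without LO mouse 3. Hspa5 (BiP), the main chaperone of the compartment, differed by 0.13 (SE 0.141). Of 20 heat-shock proteins, 4 were higher (2.52% of all genes) and 1, Cryab (-0.29, SE 0.0944), was lower (1.76%) at an unadjusted p under 0.05, and without SO mouse 2 1 was higher (2.04%). The higher ones included Hspa1a (1.0, SE 0.437) and Hspa1b (0.92, SE 0.416), whose near-identical sequences make their separate counts uncertain. Among the 22 clock genes Per1 (0.59, SE 0.24) and Bhlhe40 were higher at an unadjusted p under 0.05 (2.52% of all genes). Per1 was at 55.3, 47.9, 53.1, 62.2 and 100.4 CPM in LO and at 51.3, 34.4, 34.8, 36.5 and 54.7 CPM in SO, and without LO mouse 5, the highest of the 10, it differed by 0.37. Arntl (-0.19, SE 0.203) and Dbp (-0.05, SE 0.297), which peak at opposite times of day, differed by less than their SE.

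Inflammatory genes were mostly higher in LO, but the summed level of the list members covered nearly the same range in both diets. This sum, which the most abundant members set, was 262 to 308 CPM in LO and 265 to 308 CPM in SO. The mean log2 level of the members, relative to the SO mean, was 0.45, 0.81 and 0.63 in LO mice 1, 4 and 5. It was -0.03 and 0.03 in LO mice 2 and 3 and -0.19 to 0.25 in the SO mice. Of 25 genes of the list inflammatory cytokines and inflammasome, 21 were higher, 7 of them at an unadjusted p under 0.05 (2.52% of all genes), and 1, the interleukin 1 receptor Il1r1 (-0.36, SE 0.131), was lower at that threshold (1.76% of all genes). Il1b (interleukin 1 beta) was at 1.31, 2.41, 1.71, 5.71 and 4.87 CPM in LO and at 0.252, 0.474, 2.11, 0.737 and 0.85 CPM in SO (log2 fold change 1.86, SE 0.536, 95% interval 0.71 to 3.0). Tnf was at 0.597, 0.457, 0.24, 1.18 and 0.579 CPM in LO and at 0.158, 0.178, 0.347, 0.265 and 0.274 CPM in SO (log2 fold change 1.32, SE 0.432). LO mouse 4 was the highest for both genes, while LO mice 1 and 3 were below the highest SO mouse for Il1b and LO mouse 3 was for Tnf. Aim2 and the TNF receptor Tnfrsf1b (0.36, SE 0.118) were the members whose diets did not overlap. Over all genes, 0.328% had every LO mouse above every SO mouse. Without LO mouse 4, 4 were higher at that threshold (1.39% of all genes), and 4 were without SO mouse 4 (2.43%). Without LO mice 4 and 5, 17 of 25 were higher and 1 was so at an unadjusted p under 0.05 (1.22%), and after 32 weeks 12 of 26 were higher, with a median of -0.03.

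Of 29 chemokines, 21 were higher in LO (50.6% of all genes were) and 4 were so at an unadjusted p under 0.05 (2.52% of all genes), with a median of 0.18. Ccl2, which draws monocytes, was at 0.955, 1.19, 0.89, 0.805 and 1.01 CPM in LO and at 0.252, 0.83, 0.726, 0.413 and 0.631 CPM in SO (log2 fold change 0.76, SE 0.333), and 1 SO mouse was above the lowest LO mouse. Ccl12 (0.75, SE 0.298), Ccl7 (1.12, SE 0.416) and Ccl22 (1.4, SE 0.579) were under 2 CPM in every mouse, and without LO mouse 4 Ccl22 differed by 0.85. Without LO mice 4 and 5, 0 chemokines were higher at an unadjusted p under 0.05 (1.22% of all genes) and the median was 0.02. After 32 weeks Ccl2 and Ccl7 differed by 1.08 (SE 0.601) and 1.11 (SE 0.671), and Ccl22 by -0.37 (SE 0.50), each with an edgeR p above 0.05.

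Of 17 macrophage markers, 16 were higher in LO and 4 were so at an unadjusted p under 0.05 (2.52% of all genes), with a median of 0.28 and a summed level of 202 to 382 CPM in LO and 172 to 269.5 CPM in SO. Adgre1 (F4/80) was at 8.98, 6.49, 9.11, 11.1 and 13.5 CPM in LO and at 4.13, 7.35, 7.29, 7.28 and 7.62 CPM in SO (log2 fold change 0.54, SE 0.209, 95% interval 0.10 to 0.99). In Adgre1, 4 LO mice were above every SO mouse and LO mouse 2 was below 4 of them. Csf1r, the receptor of the macrophage growth factor, differed by 0.35 (SE 0.182) and Cd68 by 0.31 (SE 0.293). The median of the macrophage markers was 0.20 without LO mice 4 and 5, 0.13 without the mice numbered 1 of both diets and 0.30 after 32 weeks, and 0, 0 and 2 members were higher at an unadjusted p under 0.05 (1.22%, 2.14% and 1.5% of all genes). That count was 1 without LO mouse 4 (1.39%), 1 without LO mouse 5 (1.92%) and 7 without LO mouse 2 (3.59%).

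T cell markers were at their highest summed level in LO mice 4 and 5. Of 19 T cell markers, 18 were higher in LO with a median of 0.71, 3 of them at an unadjusted p under 0.05 (2.52% of all genes), and LO mouse 4 was the highest mouse for 17 of them, and for 9.94% of all genes. Cd3d, a chain of the T cell receptor complex, was at 0.263, 0.183, 0.103, 0.881 and 0.348 CPM in LO and at 0.0945, 0.0593, 0.126, 0.118 and 0.11 CPM in SO (log2 fold change 1.8, SE 0.56, 95% interval 0.61 to 2.99), from at most 35 counts in a library, and without LO mouse 4 it differed by 1.14. The summed level of the T cell markers was 33.9 CPM in LO mouse 4, 23 CPM in LO mouse 5 and 13.7 to 18.4 CPM in the other 8 mice. Without LO mouse 4 the median of the list was 0.22. Without LO mice 4 and 5, 7 of 22 were higher, where 51.5% of all genes were, with a median of -0.11.

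Of 17 B cell and plasma cell markers, 15 were higher in LO with a median of 0.96, which was 0.16 without LO mouse 4, and their summed level was 856 CPM in LO mouse 4 and 292 to 637 CPM in the other 9 mice. Cd79a, a chain of the B cell receptor, was at 6.67 CPM in that mouse and at 0.501 to 1.32 CPM elsewhere. Igha, the heavy chain of IgA, was at 61.6, 12.5, 11.4, 53.4 and 52.4 CPM in LO and at 9.26, 10.7, 15.5, 2.21 and 20.8 CPM in SO (log2 fold change 1.71, SE 0.82, 95% interval -0.03 to 3.46), and LO mice 1, 4 and 5 were above every SO mouse. All 11 genes of MHC class II presentation were higher, with a median of 0.42, and LO mouse 4 was the highest for 11 of them. The median was 0.17 without LO mouse 4. Without LO mice 4 and 5, 6 of 11 were higher and the median was 0.0057, and without LO mouse 2 the count at an unadjusted p under 0.05 was 5 in place of 0 (3.59% of all genes).

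The interferon-stimulated genes, which encode antiviral proteins induced by interferon, differed most in LO mouse 4. Of 34 tested, 33 were higher in LO and 15 were so at an unadjusted p under 0.05 (2.52% of all genes), with a median of 0.82, and LO mouse 4 was the highest mouse for 32 of them. Oas3, an oligoadenylate synthetase, was at 0.812, 0.366, 0.342, 18.9 and 1.25 CPM in LO and at 0.945, 0.741, 0.442, 0.383 and 0.219 CPM in SO (log2 fold change 2.99, SE 1.1). Isg15, a ubiquitin-like protein, was at 3.41, 2.89, 3.32, 34.2 and 4.37 CPM in LO and at 5.86, 4.27, 2.78, 2.01 and 2.19 CPM in SO (1.5, SE 0.677). The other 4 LO mice lay inside the SO range of Isg15, and for Oas3 only LO mouse 5 of these lay above it. Without LO mouse 4, 27 of 34 members were higher, 0 were so at an unadjusted p under 0.05 (1.39% of all genes), the median was 0.18, and Oas3 and Isg15 differed by 0.36 and 0.04. With LO mouse 4 kept, that count was 5, 3 and 4 without SO mouse 3, 4 or 5 (1.95%, 2.43% and 2.48% of all genes). The mean level of the list stood 2.24 above the SO mean on the log2 scale in LO mouse 4, and 0.00, 0.04, 0.22 and 0.56 above it in LO mice 1, 2, 3 and 5.

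Interferon acts on these genes through the interferon-stimulated response element, searched here on both strands as 2 runs of GAAA with any 2 bases between them. It was found in the 250 bases before the start site of 15 of the 26 interferon-stimulated genes with a promoter in the RefSeq table, of 1 of 19 immediate early genes and of 3.46% of all 27025 genes. The promoters of Isg15 (chr4:156200819-156201068, minus strand, GRCm38.p6), Ifit1 (chr19:34640639-34640888, plus strand) and Oas3 (chr5:120777660-120777909, minus strand) are shown because these genes were far higher in LO mouse 4 than in the other mice. They hold 3, 2 and 1 matches, in capitals, and overlapping matches are counted separately.
Isg15: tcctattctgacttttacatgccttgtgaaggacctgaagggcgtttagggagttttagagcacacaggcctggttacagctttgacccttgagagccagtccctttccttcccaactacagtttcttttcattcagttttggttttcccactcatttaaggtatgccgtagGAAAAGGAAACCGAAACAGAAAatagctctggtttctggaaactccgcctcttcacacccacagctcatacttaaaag
Ifit1: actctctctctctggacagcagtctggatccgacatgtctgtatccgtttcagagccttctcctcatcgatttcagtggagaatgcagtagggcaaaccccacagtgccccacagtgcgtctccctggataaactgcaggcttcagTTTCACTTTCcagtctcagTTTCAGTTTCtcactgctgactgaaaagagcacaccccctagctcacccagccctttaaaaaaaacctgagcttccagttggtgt
Oas3: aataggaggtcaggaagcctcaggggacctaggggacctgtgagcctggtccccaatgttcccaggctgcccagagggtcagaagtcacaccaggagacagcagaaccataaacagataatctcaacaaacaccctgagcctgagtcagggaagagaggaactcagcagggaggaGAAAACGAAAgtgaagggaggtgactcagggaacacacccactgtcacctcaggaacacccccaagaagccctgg
Ifit1, an inhibitor of viral translation, was at 182 CPM in LO mouse 4 and at 12.5 to 50.4 CPM in the other 9 mice.

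**Figure D4:**
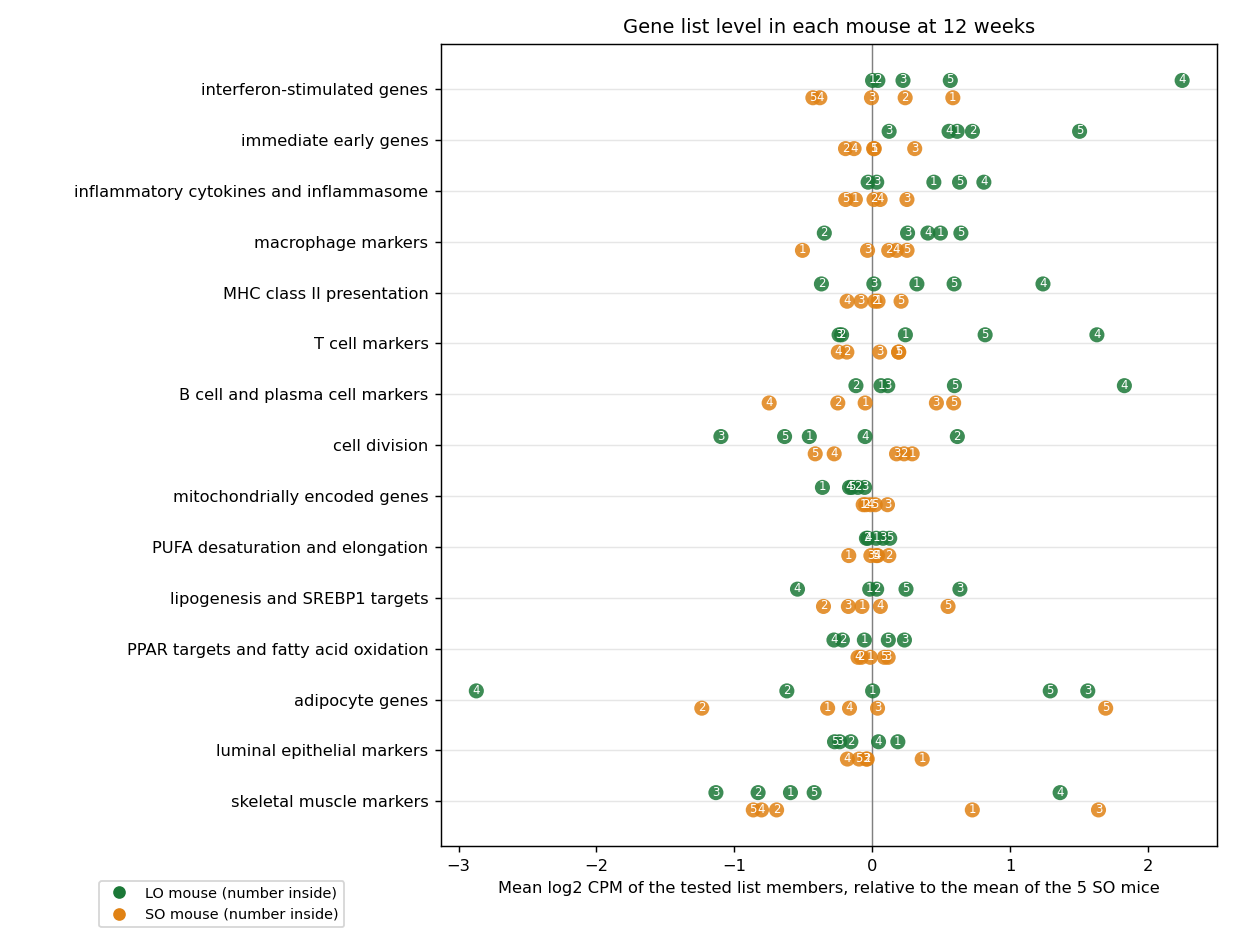
Mean log2 CPM of the tested members of 15 gene lists in each mouse at 12 weeks, relative to the mean of the 5 SO mice (LO green, SO orange). LO mouse 4 lies at 2.24 for interferon-stimulated genes and 1.63 for T cell markers, and LO mouse 5 at 1.5 for immediate early genes.

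LO mouse 4 also differed from its group in markers of other tissues. The skeletal muscle markers were 1.36 above the SO mean on the log2 scale in that mouse and at -0.59, -0.83, -1.13 and -0.42 in the other LO mice, with SO mice 1 and 3 at 0.72 and 1.64. Their summed level was 80.8 to 179 CPM in LO and 103 to 148 CPM in SO. By this sum LO mouse 1 was the highest, and LO mouse 4 was at 148 CPM, as were SO mice 1 and 3. Myh4, a fast myosin, was at 16.1 CPM in LO mouse 4, 9.46 CPM in SO mouse 3 and 2.33 CPM in SO mouse 1, and was at 0 in 4 mice. The adipocyte genes were at -2.87 in LO mouse 4, the lowest of the 10 mice. The part of these tissues in the immune values of LO mouse 4 was not tested. Of 12 luminal epithelial markers, 2 were higher in LO with a median of -0.10, and the keratins Krt8 and Krt18 differed by -0.11 (SE 0.138) and -0.13 (SE 0.0671). Of the androgen receptor and its targets, 15 of 23 were higher with a median of 0.04, none at an unadjusted p under 0.05.

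Lists of other cell types and pathways followed no common direction. Of the complement genes 18 of 22 were higher in LO with a median of 0.18, and of the fibroblast and collagen genes 15 of 29 were higher in LO with a median of 0.04 (-0.12 without LO mouse 1). Of the smooth muscle markers 11 of 16 were higher in LO with a median of 0.05, and 2, Synm (0.30, SE 0.132) and Synpo2 (0.41, SE 0.175), were higher at an unadjusted p under 0.05 (2.52% of all genes), none of them without LO mouse 1 or SO mouse 3. Of the endothelial markers 9 of 12 were higher in LO with a median of 0.11 (0.01 without LO mouse 1), and of the basal epithelial markers 4 of 11 were higher in LO with a median of -0.03, with 0 higher without LO mouse 1 (49.6% of all genes) and 7 without LO mouse 3 (50.4%). Of the nuclear receptors 10 of 22 were higher in LO with a median of -0.03, and of the insulin-like growth factor axis 5 of 13 were higher in LO with a median of -0.04 (0.09 without LO mouse 2).

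Among the other immune lists, members higher in LO numbered, with the median log2 fold change in brackets, 11 of 14 (0.45) for chemokine receptors, 9 of 12 (0.27) for Toll-like receptors, 9 of 10 (0.29) for NK cell and cytotoxic markers and 13 of 15 (0.17) for MHC class I and peptide loading. Without LO mouse 4 these medians were 0.24, 0.06, 0.02 and 0.04. Neutrophil and eosinophil markers were higher for 4 of 6 (0.22), dendritic cell markers for 6 of 10 (0.07) and mast cell markers for 3 of 8 (-0.04), which moved to 0.14 without LO mouse 2. The red blood cell genes were higher for 7 of 7 (0.31), with 0.08 without LO mouse 1. Genes of other prostate lobes and the seminal vesicle were higher for 6 of 6 (0.15) and lay at -0.04 without LO mouse 4. The summed level of these genes was 342 CPM in LO mouse 2, 501 CPM in SO mouse 5 and 2442 to 5587 CPM in every other mouse. The part of lobe content in the other values was not tested. Ventral prostate secretory genes were higher for 4 of 10 (-0.05), with 0.07 without SO mouse 2. Adipocyte genes were higher for 12 of 15 (0.17), but their median was -0.26 without LO mouse 3 and 1.1 without SO mouse 5. Skeletal muscle markers were higher for 4 of 12 (-0.24), with -1.13 without LO mouse 4 and 0.39 without SO mouse 3. The remaining lists were the circadian clock with 15 of 22 (0.08), polyamine metabolism with 6 of 14 (-0.01), thermogenic genes with 5 of 8 (0.11), Schwann cell and neuronal markers with 5 of 8 (0.09) and urothelial markers with 1 of 3 (-0.25). Without LO mouse 3 the median of the thermogenic genes was -0.25.

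Genes of cell division were lower in LO for most members. Of 28 tested, 25 were lower, none at an unadjusted p under 0.05, with a median of -0.22. Mki67, the proliferation antigen, was at 8.84, 27.9, 3.36, 16.1 and 9.44 CPM in LO and at 22.2, 25.6, 26.6, 15.6 and 8.47 CPM in SO (log2 fold change -0.58, SE 0.427, 95% interval -1.49 to 0.32). The mitotic topoisomerase Top2a was at 22.4, 50, 21.9, 26.8 and 23.3 CPM in LO and at 30.7, 34.4, 38, 28.2 and 28 CPM in SO (-0.14, SE 0.211), and LO mouse 2 was the highest mouse for both genes and for 22 of the 28. Without LO mouse 2, 26 of 28 were lower, 12 of them at an unadjusted p under 0.05 (2.91% of all genes), with a median of -0.55. Without LO mouse 3, 21 were lower with a median of -0.07. Without the mice numbered 1 of both diets, 18 were lower with a median of -0.09, 0 at an unadjusted p under 0.05 (1.17% of all genes), and without LO mouse 4 24 were lower, 0 at that threshold (1.33%). After 32 weeks all 28 were lower in LO, 6 of them at an unadjusted p under 0.05 (1.99% of all genes), with a median of -0.35. Mki67 was then at 57.3 CPM in SO mouse 4, at 22.6 to 31.7 CPM in the other SO mice and at 10.4 to 36.6 CPM in LO. The 32-week comparison was not run without single mice, so the part of SO mouse 4 in it was not tested.

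**Figure D5:**
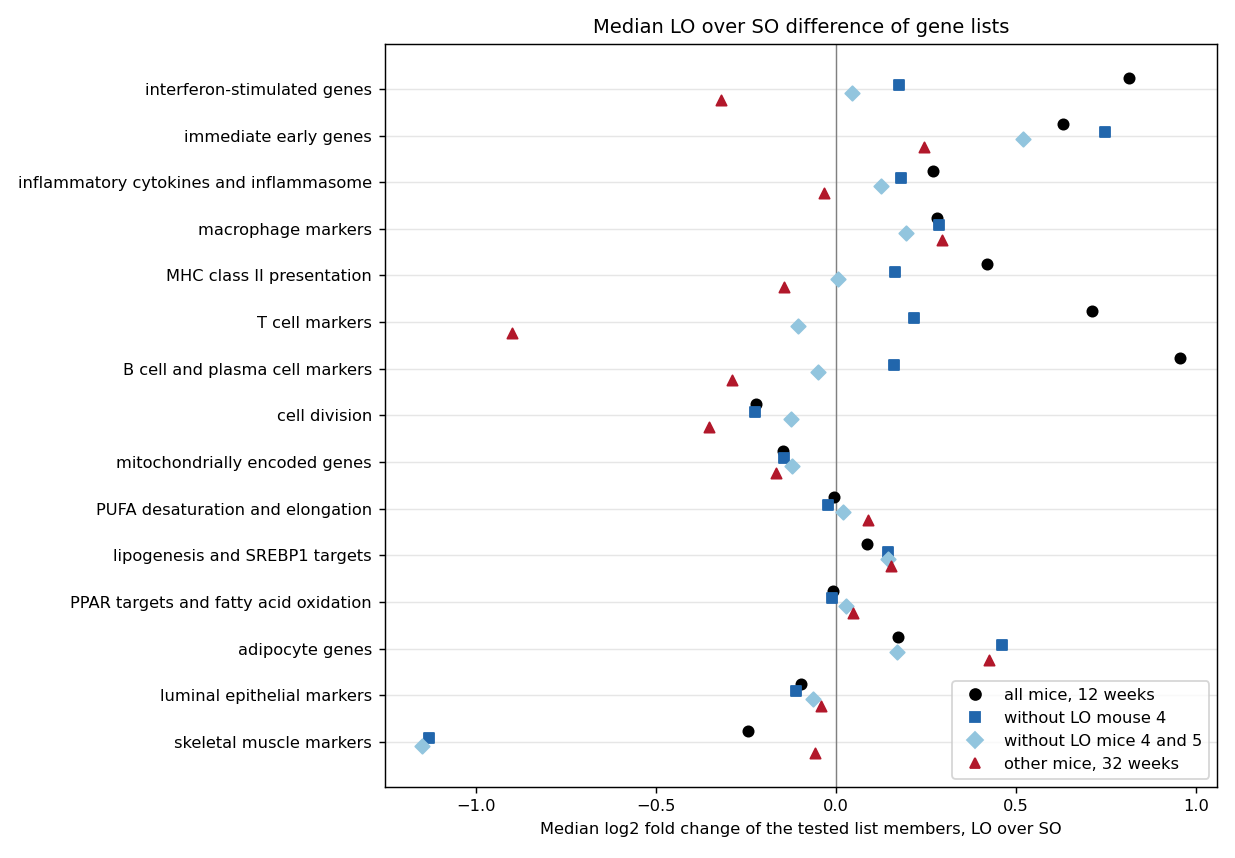
Median log2 fold change, LO over SO, of the tested members of 15 gene lists with all mice at 12 weeks, without LO mouse 4, without LO mice 4 and 5, and in the other mice fed for 32 weeks. The interferon-stimulated genes move from 0.82 to 0.18 without LO mouse 4 and lie at -0.32 after 32 weeks, while the mitochondrially encoded genes lie between -0.12 and -0.17 in the settings shown.

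The comparison after 32 weeks also gave 0 genes at an adjusted p under 0.05 (edgeR's quasi-likelihood test with Benjamini-Hochberg adjustment, smallest adjusted p 0.438), with 243 genes higher and 322 lower at an unadjusted p under 0.05. The change of the difference between LO and SO from 12 to 32 weeks was tested in 1 model over both times. By edgeR, 0 of 16605 genes passed an adjusted p under 0.05 and 553 (3.33%) had an unadjusted p under 0.05. DESeq2, which tested 26704 genes, also called 0, with 652 at an unadjusted p under 0.05. Xlr4b, of an X-linked family with near-identical copies, had the smallest p. At 12 weeks it was at 2.15, 0.335, 0.342, 3.2 and 0.377 CPM in LO and at 0.189, 0.385, 0.252, 0.236 and 0.494 CPM in SO, and after 32 weeks at 0.897, 0.773, 0.931, 0.349 and 0.802 CPM in LO and at 0.547, 5.62, 6.36, 1.24 and 0.579 CPM in SO. High values were thus in LO mice 1 and 4 at the first time and in SO mice 2 and 3 at the second. Hoxa13, a homeobox gene of the urogenital tract, differed by -0.10 (SE 0.119) at 12 weeks and by 0.60 (SE 0.124) at 32 weeks, when every LO mouse (18.6 to 23 CPM) was above every SO mouse (12.5 to 15.3 CPM). Amd2, a copy of the gene of a polyamine enzyme, was at 41.2 CPM in LO mouse 4 at 12 weeks and 26.8 CPM in SO mouse 4 at 32 weeks, and at 1.74 to 4.36 CPM in the other 18 mice.

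With all mice, T cell and interferon genes had opposite signs at the 2 times. T cell markers were higher in LO for 18 of 19 members at 12 weeks and for 0 of 23 at 32 weeks, when 6 were lower at an unadjusted p under 0.05 (1.99% of all genes) and the median was -0.90. The interferon-stimulated genes were higher for 33 of 34 and then for 3 of 34. Without LO mouse 4 the 12-week medians were 0.22 for T cell markers and 0.18 for interferon-stimulated genes. Without LO mice 4 and 5 the 12-week T cell median was negative. These mice had the highest T cell levels, so leaving them out lowers this median by construction, and its sign says nothing about the 32-week values. At 32 weeks Cd3d was at 4.95 CPM in SO mouse 4 and at 0.547 to 1.26 CPM in the other 9 mice. The change with time had an unadjusted p under 0.05 for Cd3d, Oas3 and Jun by edgeR's quasi-likelihood test, and for none of the 3 did the adjusted p pass. At 12 weeks Oas3 differed by 0.36 without LO mouse 4.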

How the data were processed

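RNA-seq was done on the VP of 5 mice per diet and time, with stranded mRNA libraries read as paired ends. The authors deposited 1 table per mouse of raw counts of read pairs per gene, and the submitters' processing notes name TopHat2, HTSeq, DESeq2 and GRCm38.p6. The annotation release and the strand setting of the counting are not given in the sources used here. The 5 lines of each table that name no gene held 23.7% to 32.2% of pairs over the 30 mice and were left out. Symbols came from GENCODE M21 (37693 of 39179 IDs matched) and promoters from RefSeq.

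Genes were filtered with filterByExpr, scaled by TMM and tested in R 4.3.3 with the quasi-likelihood test of edgeR 4.0.16 (limma 3.58.1) and Benjamini-Hochberg adjustment, in 1 fit that holds the 3 diets at 12 weeks. DESeq2 1.42.0, other scalings, filters and sample sets, a replicate block and leaving out mice were alternatives. Log2 CPM used a prior count of 2. Scripts were tested on simulated counts. Principal components and distances used the 500 most variable genes after variance stabilisation. Counting precision is set by 29596273 to 39239920 counts per LO or SO mouse at 12 weeks.

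Lists were 46, with 888 genes of which 787 were tested. Named genes were the 10 per direction with no overlap, a mean of at least 1 CPM and the smallest p, the key members and up to 4 others of each list, up to 20 called under an alternative and 5 for the change with time. Some genes that this rule takes are not reported here. The members and lists were chosen with earlier results of these data known.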

Additional observations from a re-analysis of the deposited data

Results flagged for a closer look

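In each group of 5 mice, the highest or lowest mouse was set apart where its gap to the next, divided by the range of the group on the log2 CPM scale, passed Dixon's limit of 0.71. Chance gives this in about 1 in 20 groups. Among 92 groups of list levels it was met 5 times, 3 of them by LO mouse 4, and among 248 groups of single genes 22 times, 6 of them by LO mouse 4.

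As list levels relative to the SO mean on the log2 scale, LO mouse 4 stood at 2.24 for interferon-stimulated genes, 1.02 for NK cell and cytotoxic markers and 1.36 for skeletal muscle markers. SO mouse 1 stood at -0.11 for eicosanoid synthesis, below its group, and at 0.36 for luminal epithelial markers, above it.

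Among genes, LO mouse 4 was above the other LO mice for the antiviral genes Irf7 (136 CPM), Isg15 (34.2 CPM) and Oas2 (38.8 CPM), for the T cell receptor chain Trbc1 (1.38 CPM) and for Amd2 (41.2 CPM), and below them for Rai2 (7.52 CPM). LO mouse 2 was low for Msmb (521 CPM) and Pbsn (119 CPM) and high for Top2a (49.95 CPM), and LO mouse 3 was low for Ccl7 (0.274 CPM). SO mouse 1 was high for 1810019D21Rik (102 CPM) and low for Adgre1 (4.13 CPM), Dnajb6 (72.6 CPM) and Nqo1 (0.819 CPM). SO mouse 5 was high for Herpud1 (700.02 CPM) and low for Msmb (611 CPM), Pbsn (327 CPM), Nlrp3 (0.110 CPM) and Prdx4 (29.8 CPM). SO mouse 4 was low for Angptl4 (2.92 CPM) and Mkrn3 (1.56 CPM), and SO mouse 3 was high for Tgm4 (83.4 CPM).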

How the results depend on the processing

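The count of 0 genes at an adjusted p under 0.05 held in every edgeR fit run, with 0 to 0 genes over the fits that left out 1 mouse each, and in DESeq2 with the 3 diets and no block. The mice numbered 1 deviated together (correlation 0.442 across genes), but the other 4 pairs of the same number did not (-0.107 to -0.0336), so the numbers were not taken to pair the mice, and 2 of 10 mice correlated best with their own number. With that replicate block edgeR called 0 genes (778 at an unadjusted p under 0.05). DESeq2 with the replicate block called 12 of the 12982 genes given an adjusted p. Of these, 8 were higher in LO (among them Bhlhe40, Piga, Ddit3, Ccar1, Il1b, Dusp1 and Baz1b) and 4 lower (5031425E22Rik, Lrrc8d, 1810019D21Rik and mt-Nd3). DESeq2 on LO and SO mice only called 1, Rpl10-ps3 (log2 fold change -0.88). The cause of these calls was not tested. Genes at an unadjusted p under 0.05 numbered 436 to 1045 over the fits without 1 mouse, 436 without LO mouse 4 and 1045 without LO mouse 2, and 440 without LO mice 4 and 5, which was added after seeing the data. The change with time gave 0 to 0 genes without 1 mouse each. With values centred on the replicate number as a block, the difference on component 1 was -4.89 (exact permutation test, p = 0.5625) and on component 2 -2.02 (p = 0.8125). Over fits without 1 mouse these differences ranged over -6.15 to 1.90 and -0.57 to 3.66, and that of the spread over 3.02 to 7.83. Over the fits without 1 mouse each, the medians of 42 of 46 lists changed sign or moved by over 1.5 times at least once, 18 of them with a change of sign. By more than 1 SD of the list level between mice of a diet, medians moved for B cell and plasma cell markers without LO mouse 4 (0.16) and, without LO mice 4 and 5, for Toll-like receptors (-0.05), chemokine receptors (0.08), interferon-stimulated genes (0.05), T cell markers (-0.11), B cell and plasma cell markers (-0.05) and NK cell and cytotoxic markers (-0.09). The median of the 3 urothelial markers moved with DESeq2 (-0.0066), no filter (-0.0041) and DESeq2 with the replicate block (-0.05). Of 124 genes, 93 had 1 direction under every alternative and 31 had the other sign under at least 1. With 5 mice a group, genes of a few counts per library give fold changes that 1 mouse can set.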
